A study of Homo sapiens with 6 samples.

Results

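The genes described here are 48 regulators and enzymes of the cell cycle and of DNA replication, taken by symbol taken by symbol from a list of well-known members of these pathways, out of the 18086 gene symbols that appear in the 4 deposited peak lists. They comprise 8 cyclins and kinases of G1, 3 E2F transcription factors, 12 origin licensing genes, 10 genes of the replication fork and of nucleotide supply, 7 genes of mitotic entry, 6 mitotic kinases and checkpoint genes, and 2 widely used proliferation markers. All 48 had at least 1 line in the parental H3K4me3 list, 45 in the knockout H3K4me3 list, and 1 in each H3K27me3 list. Of the 18086 symbols, 15382 and 13665 had a line in the parental and knockout H3K4me3 lists. In the H3K27me3 lists 2337 and 2352 did. The lists come from chromatin immunoprecipitation and sequencing (ChIP-seq) in HL-60, an established human promyelocytic leukaemia line, compared between parental cells and JMJD3 knockout cells (JMJD3 KO). Each genotype gave 1 library per mark, so every difference between genotypes below is a difference between 2 libraries, without a replicate check and without a test. Neither the making of the knockout nor its number of clones is given in the sources used here. Both genotypes grew in DMEM with 10% FBS, and no treatment is named for either.

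The targeted gene KDM6B, which encodes JMJD3, kept promoter H3K4me3 in both lists. Its peaks summed to 3041 bp in the parental list and to 710 bp in the knockout list. A histone mark does not show whether its coding sequence was disrupted. Of 8 genes of the granulocyte lineage, 6 carried promoter H3K4me3 in parental and 5 in knockout cells. Of all gene symbols, 71.3% and 62.9% did, so these counts are close to the share over all symbols. The myeloperoxidase gene MPO had 5524 and 2550 bp, whereas the granule genes ELANE and AZU1 had no promoter peak in either list. The H3K27me3 libraries carry that name in their titles, while their antibody label names H3K4me3, and the title was followed. The title of the knockout H3K4me3 library is spelled K3K4me3. The knockout H3K4me3 list was shorter and its peaks were narrower, with 24943 against 33470 distinct peaks and a median peak width of 260 against 359 bp. The number of reads behind each list is unknown.

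Cells that divide pass a G1 checkpoint at which D-type cyclins with CDK4 or CDK6, and then cyclin E with CDK2, release E2F factors from the retinoblastoma protein. E2F factors switch on genes of S phase, among them those that load and fire replication origins, while the genes of mitosis are switched on later through the DREAM and MuvB-MYB-FOXM1 complexes. Promoters of genes in use carry H3K4me3 around the transcription start site (TSS), H3K27me3 marks chromatin silenced by Polycomb, and JMJD3 removes methyl groups from H3K27. HL-60 cells proliferate continuously in culture, and their growth stops when they are made to differentiate.

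Promoter sequences of 10 members are shown because they carry the elements through which these genes are known to be timed, and because 3 of them, GMNN, CCNB1 and POLA1, belong to the genes without a knockout H3K4me3 peak. Each is the 150 bases that end at a RefSeq start of the gene (GRCh38.p14), written 5′ to 3′ on the strand of the gene. Capitals mark E2F sites, CHR elements (cell cycle genes homology region) and NF-Y boxes. GMNN and CDK1 have 2 RefSeq windows each, and the one that ends at the start lying further along the plus strand is shown. The other GMNN window held none of the 3 elements, and the other CDK1 window held each of them. The peak lists also give GMNN 2 start sites, 24775158 and 24775640 (hg19). NM_015895, for which its peaks are described below, has the first of these, not the one further along.
GMNN, chr6:24775263-24775412, plus strand: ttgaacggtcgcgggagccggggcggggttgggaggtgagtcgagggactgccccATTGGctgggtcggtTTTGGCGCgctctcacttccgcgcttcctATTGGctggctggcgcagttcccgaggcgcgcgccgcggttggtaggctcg
CCNB1, chr5:69167000-69167149, plus strand: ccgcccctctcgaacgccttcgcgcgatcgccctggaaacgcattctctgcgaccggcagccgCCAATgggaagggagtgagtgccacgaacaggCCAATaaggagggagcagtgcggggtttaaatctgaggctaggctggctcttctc
POLA1, chrX:24693768-24693917, plus strand: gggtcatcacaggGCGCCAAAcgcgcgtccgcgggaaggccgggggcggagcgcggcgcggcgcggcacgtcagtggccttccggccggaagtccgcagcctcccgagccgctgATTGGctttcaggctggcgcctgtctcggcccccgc
E2F1, chr20:33686386-33686535, minus strand: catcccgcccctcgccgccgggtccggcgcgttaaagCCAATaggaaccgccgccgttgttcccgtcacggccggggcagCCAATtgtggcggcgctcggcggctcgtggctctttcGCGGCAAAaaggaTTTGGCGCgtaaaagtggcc
MCM6, chr2:135876444-135876593, minus strand: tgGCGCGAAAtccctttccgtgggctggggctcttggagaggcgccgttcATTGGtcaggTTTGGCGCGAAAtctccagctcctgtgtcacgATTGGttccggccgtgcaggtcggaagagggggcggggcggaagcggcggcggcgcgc
CDT1, chr16:88803639-88803788, plus strand: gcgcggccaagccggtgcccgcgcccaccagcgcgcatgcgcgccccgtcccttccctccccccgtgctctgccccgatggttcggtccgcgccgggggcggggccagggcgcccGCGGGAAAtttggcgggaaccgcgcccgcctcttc
CDK1, chr10:60778328-60778477, plus strand: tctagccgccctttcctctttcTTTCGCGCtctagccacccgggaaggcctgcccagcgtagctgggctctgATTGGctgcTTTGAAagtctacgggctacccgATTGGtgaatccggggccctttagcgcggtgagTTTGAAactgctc
PLK1, chr16:23678739-23678888, plus strand: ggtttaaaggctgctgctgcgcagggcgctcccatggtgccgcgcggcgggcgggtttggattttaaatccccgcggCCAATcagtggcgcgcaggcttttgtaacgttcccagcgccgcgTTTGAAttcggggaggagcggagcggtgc
CDC20, chr1:43358831-43358980, plus strand: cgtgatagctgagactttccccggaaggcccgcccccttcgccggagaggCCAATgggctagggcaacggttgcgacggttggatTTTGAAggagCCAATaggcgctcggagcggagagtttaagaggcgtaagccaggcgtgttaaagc
CCNB2, chr15:59104996-59105145, plus strand: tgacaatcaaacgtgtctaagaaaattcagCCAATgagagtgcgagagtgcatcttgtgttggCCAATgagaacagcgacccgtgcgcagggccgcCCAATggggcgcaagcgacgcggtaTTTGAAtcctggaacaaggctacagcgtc

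E2F sites were most frequent in the E2F and licensing genes of this set and CHR elements in its mitotic genes. E2F sites were searched as TTTCGCGC, TTTGGCGC, TTTCCCGC and TTTGCCGC, CHR elements as TTTGAA and TTCGAA, and NF-Y boxes as CCAAT, all on both strands and in windows from 250 bases before to 50 bases after each start. Windows were found for 41 of the 48 members. An E2F site was present in 7 of 10 origin licensing genes and in all 3 E2F genes, in 4 of 10 genes of the fork and of nucleotide supply and in 2 of 7 genes of mitotic entry. None was found in the 5 mitotic kinases and checkpoint genes, the 4 G1 genes and the 2 proliferation markers with a window. Over the whole set 39.0% of members held an E2F site, against 3.99% of the 27305 genes of the table and 6.89% of the 9181 genes with both a window and a promoter H3K4me3 peak. CHR elements were present in 4 of the 5 mitotic kinases and checkpoint genes, in 4 of 7 genes of mitotic entry and in both proliferation markers, but in 1 of 10 licensing genes; the share of all table genes was 19.5%. NF-Y boxes were present in 78.0% of members and in 39.7% of all table genes. The windows also differ in base composition, with a median of 26 CpG in members, 25 in genes with promoter H3K4me3 and 14 in all table genes.

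In MCM6, the gene of a subunit of the replicative helicase, 4 E2F matches formed 2 overlapping pairs, of which the inner pair is the capital run near the middle of the stretch shown. CDK1 held an E2F site 128 bases before the start and CHR elements 69 and 13 bases before it. In PLK1 and CCNB2 the CHR element began 29 bases before the start, behind 1 or more NF-Y boxes. CCNB1 held 2 NF-Y boxes in the stretch shown and no match to the E2F or CHR letters in its window. CDK6 held none of the 3 elements in either of its windows. A match of letters is a description of the sequence and does not show that a factor is bound.

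**Figure D1:**
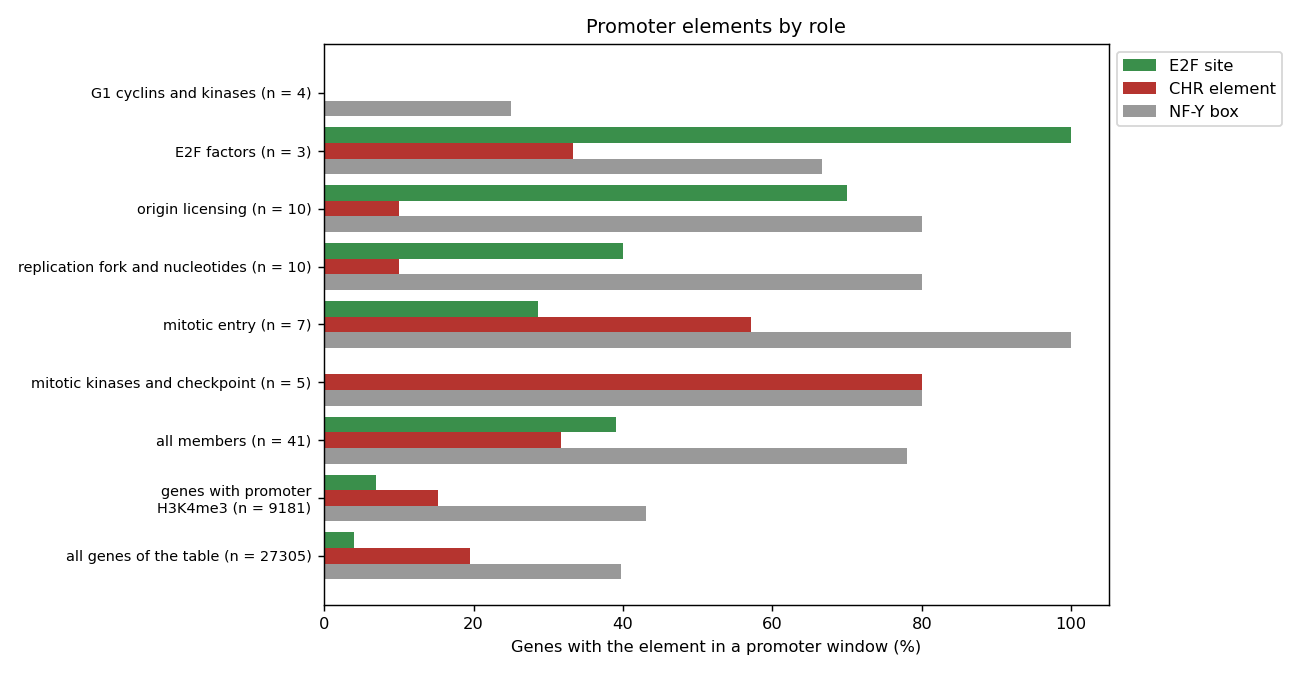
Share of genes (%) with each promoter element in at least 1 RefSeq window, for 6 role groups, for all 41 members with a window, for genes with promoter H3K4me3 and for all genes of the table; n counts genes with a window. E2F sites peak in the E2F and licensing groups, and CHR elements in the mitotic groups.

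Promoter H3K4me3 covered the whole set in parental cells and nearly all of it in the knockout. A gene was called marked when a peak centre lay at most 5 kb from a TSS or a peak spanned it. All 48 members were marked in the parental and 45 in the knockout list, where 71.3% and 62.9% of all symbols were marked, and 45 in both, as were 61.9% of all symbols. Marked in parental cells only were GMNN, CCNB1 and POLA1, 3 of 48, against 9.45% of all symbols and 13.2% of the genes marked in parental cells. In a bulk population, a peak carried by fewer cells and a peak with less mark per cell cannot be told apart. None was marked in knockout cells only, a state that 0.984% of all symbols had. The summed width of a member's promoter peaks ranged from 231 bp (POLA1) to 6940 bp (CCND3) in parental cells. Its median was 2017.5 bp, and over all genes marked there it was 1552 bp. A width tells how far a called region reaches, not how much of the mark it holds.

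All 45 members marked in both lists were narrower in the knockout list, in which 4.05% of the 11190 genes marked in both were wider. With a window of 1 kb, 5 of the 41 members then marked in both lists were wider (CCND3, CDK2, ORC1, CCNA2 and CDC25B). The log2 ratio of knockout to parental width ranged from -3.06 to -0.16 with a median of -0.93, and the median over all genes was -1.01. Of the 45 members, 25 lay above and 20 below that median. The quartiles of the members were -1.48 and -0.72, and those of all genes -1.49 and -0.61. The set thus lay close to the whole list in its middle and its spread, and its median fell below that of all genes with peaks of at least 300 bp (-1.28 against -1.14).

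**Figure D2:**
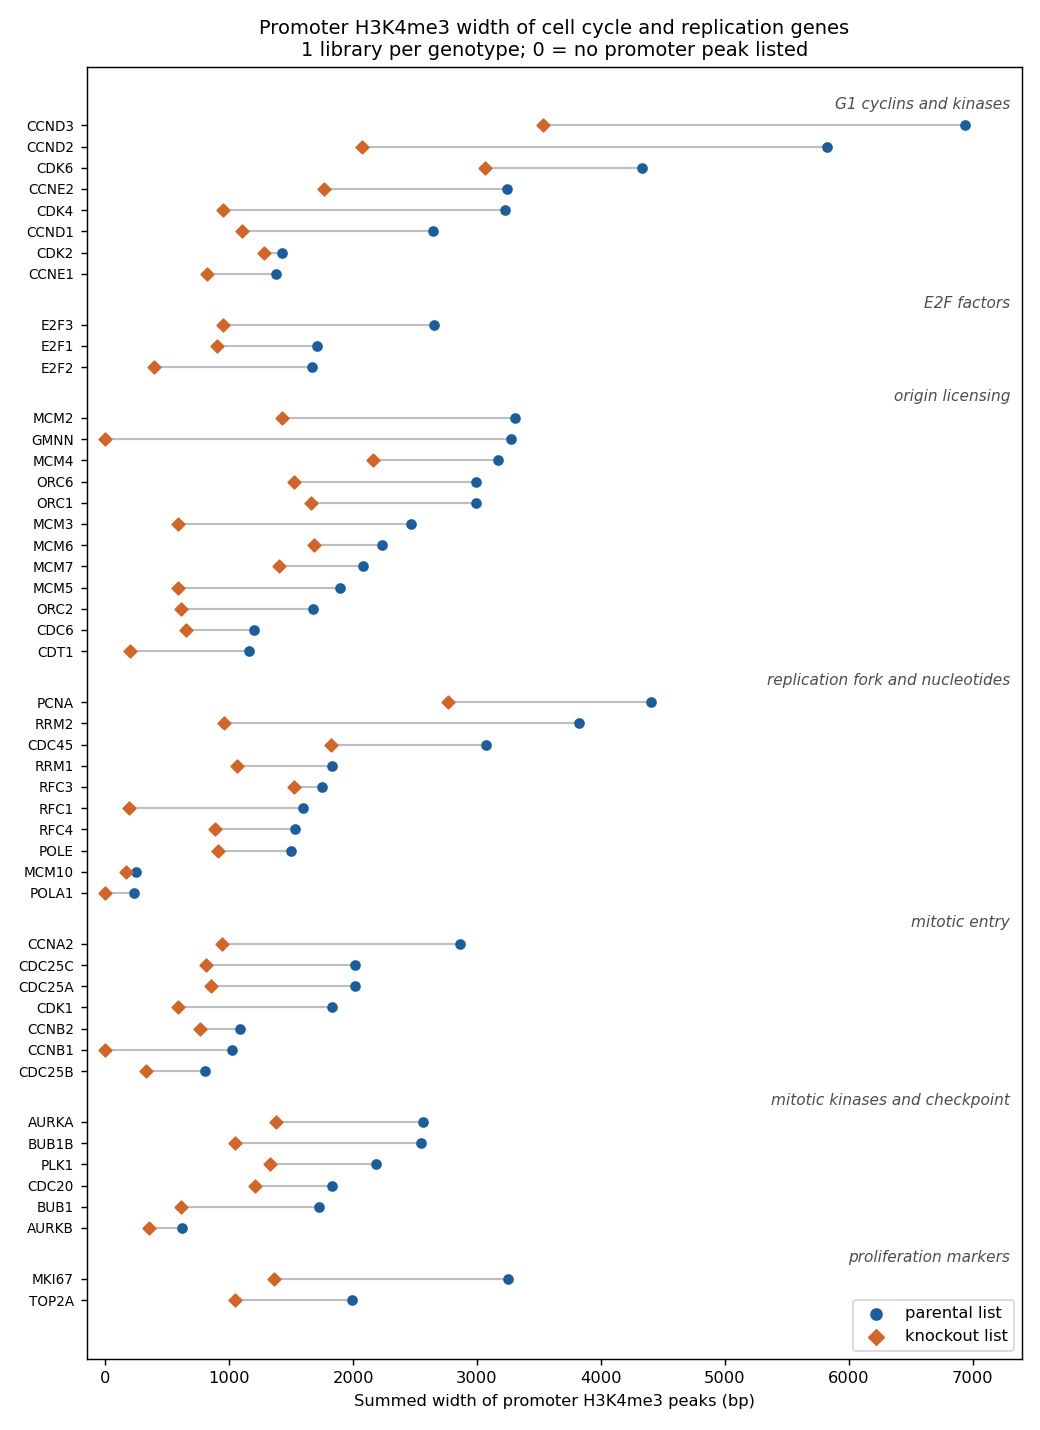
Summed width (bp) of promoter H3K4me3 peaks for each of the 48 members in the parental (circles) and the knockout list (diamonds), 1 library each, ordered by role; 0 means that no promoter peak was listed. Every diamond lies left of its circle, and those of GMNN, CCNB1 and POLA1 lie at 0.

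Origin licensing genes held the widest region that was missing from the knockout list. GMNN, whose protein geminin binds CDT1 and blocks a second round of licensing, had 7 parental peaks of 462, 422, 236, 1337, 432, 213 and 171 bp along chromosome 6 (NM_015895, hg19), 3273 bp in all. The knockout list held no peak within 20 kb of it, as was the case for 74.9% of the genes marked in parental cells only. Its partner CDT1, which loads the MCM helicase, was marked in both lists, but in different places. The parental peaks of 178, 627 and 356 bp had their centres 175, 861 and 1528 bp downstream of the TSS of CDT1 on chromosome 16 (NM_030928), and the single knockout peak of 202 bp lay at -428 bp, on the other side of the TSS. The log2 ratio of CDT1 was -2.52, and 4.73% of genes had a ratio as low.

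The 6 subunits of the MCM2-7 helicase were marked in both lists but narrowed to very different degrees. MCM6 had 2232 bp in 1 parental peak and 1686 bp in 3 knockout peaks (-0.40). MCM4 had 3170 and 2164 bp (-0.55) and MCM7 2077 and 1405 bp (-0.56). MCM2 had 3310 and 1429 bp (-1.21), MCM5 1895 and 585 bp (-1.70), and MCM3 2471 and 585 bp (-2.08). The order by ratio did not follow the parental width, since MCM2 was the widest of the 6 in parental cells. It also depended on the window. Within 1 kb MCM4 had 829 and 230 bp and MCM5 743 and 585 bp, so MCM5 narrowed less than MCM4 there. MCM2 and MCM6 had no parental peak centred within 1 kb. Subunits of the origin recognition complex narrowed from 2989 to 1661 bp at ORC1 (-0.85), from 1674 to 609 bp at ORC2 (-1.46) and from 2990 to 1524 bp at ORC6 (-0.97). CDC6, which joins this complex to load the helicase, had 1197 and 652 bp (-0.88).

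Genes of the replication fork included the lowest ratio of the set and the gene with the smallest parental region. RFC1, the large subunit of the clamp loader, had parental peaks of 158, 1270 and 165 bp on chromosome 4 and 1 knockout peak of 191 bp inside the widest of them. Its ratio of -3.06 was reached by 1.39% of genes. Of the smaller clamp loader subunits, RFC3 had 1751 and 1523 bp (-0.20) and RFC4 1532 and 890 bp (-0.78). RFC2 and RFC5, which are not members of the set, had 1304 and 434 bp (-1.59) and 1373 and 480 bp (-1.52). The subunits of this 1 complex thus differed widely in their ratios. PCNA, the sliding clamp loaded by this complex, had 4407 and 2766 bp (-0.67), in 4 and 7 peaks. It shares promoter peaks with CDS2 and PCNA-AS1. With each peak counted for its nearest gene only, PCNA had 314 and 188 bp, and with peaks of at least 300 bp its ratio was -1.36. POLA1, the catalytic subunit of DNA polymerase alpha, had 1 parental peak of 231 bp on the X chromosome, from 24712292 to 24712522 (hg19), and no knockout peak within 20 kb. MCM10, which helps to activate the helicase, was nearly as small, with 247 and 165 bp from peaks that did not overlap each other.

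The remaining fork and nucleotide genes fell into a narrow range, except RRM2. CDC45, a part of the active helicase, had 3072 and 1823 bp (-0.75), and the polymerase epsilon gene POLE had 1500 and 910 bp (-0.72). RRM1, the large subunit of ribonucleotide reductase, had 1827 and 1060 bp (-0.79). RRM2, its small subunit, had 5 parental peaks of 3823 bp, the fifth-widest region of the set, and 4 knockout peaks of 204 to 272 bp that summed to 962 bp (-1.99).

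G1 cyclins and kinases had the highest group median of parental width, 3231.5 bp, summed over all start sites of a gene. CCNE1 and CDK2 lay below the median of all marked genes, 1552 bp. CCND3, cyclin D3, had 11 peaks in each list, which summed to 6940 bp in the parental and to 3535 bp in the knockout list (-0.97). They lay around start sites at 41909586 and 42016632 on chromosome 6 (hg19). CCND2, cyclin D2, had 9 peaks of 5820 bp and 5 peaks of 2068 bp (-1.49). CCND1, cyclin D1, had 5 peaks in each list, of 2645 and 1104 bp (-1.26). These are 3 separate genes for the same partner role, and all 3 were marked in both genotypes. Among their kinases CDK6 had 4327 and 3063 bp (-0.50) and CDK4 3223 and 954 bp (-1.76). CDK4 shares promoter peaks with MARCH9 and MIR6759. With each peak counted for its nearest gene only, CDK4 had 1501 and 607 bp. CDK2, the partner of cyclin E, had the highest ratio of the members marked in both lists, with 1429 and 1283 bp (-0.16). It shares a promoter peak with PMEL. Counted for the nearest gene only, CDK2 had 1022 and 1137 bp and was wider in the knockout list. The 2 cyclin E genes had 1378 and 824 bp at CCNE1 (-0.74) and 3240 and 1769 bp at CCNE2 (-0.87).

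E2F genes had a group median ratio of -1.48. E2F1 had 1709 and 906 bp (-0.92), E2F3 2650 and 952 bp (-1.48), and E2F2 1666 and 396 bp (-2.07). The knockout region of E2F2 was 1 peak that lay wholly inside the parental region.

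Mitotic entry genes had the lowest median among the role groups with at least 5 genes, -1.29 over the 6 marked in both lists, and 5 of these 6 lay below the median of all genes. CCNB1, cyclin B1, which drives cells into mitosis with CDK1, had 4 parental peaks of 259, 385, 197 and 181 bp on chromosome 5 (NM_031966) and no knockout peak within 20 kb. CCNB2, the related cyclin B2, was marked in both lists with 1089 and 761 bp (-0.52). CDK1 itself had 3 peaks in each list, of 1829 and 590 bp (-1.63), and CCNA2, cyclin A2, 2863 and 941 bp (-1.61). The phosphatases that activate these kinases had similar ratios with the 5 kb window only. There CDC25A narrowed from 2017 to 850 bp (-1.25), CDC25B from 806 to 333 bp (-1.28) and CDC25C from 2018 to 812 bp (-1.31). Within 1 kb they differed, with 1424 and 267 bp at CDC25A, 316 and 333 bp at CDC25B and 1288 and 411 bp at CDC25C.

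All 6 mitotic kinases and checkpoint genes were marked in both lists. PLK1, a kinase of spindle assembly, had 2181 and 1327 bp (-0.72), and CDC20, an activator of the anaphase-promoting complex, 1832 and 1207 bp (-0.60). AURKA, the centrosomal Aurora kinase, had 2562 and 1381 bp (-0.89). Within 1 kb AURKA had 2562 and 149 bp, a stronger narrowing than that of RFC1 there (1435 and 191 bp). AURKB, the Aurora kinase of the chromosomal passenger complex, had 623 bp in 3 parental peaks and 356 bp in 1 knockout peak (-0.81), which overlapped none of the 3. The checkpoint genes narrowed from 1722 to 609 bp at BUB1 and from 2546 to 1047 bp at BUB1B (-1.28). MKI67, the gene of the proliferation antigen Ki-67, had 3248 and 1365 bp (-1.25), and TOP2A, a topoisomerase of dividing cells, 1989 and 1045 bp (-0.93).

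**Figure D3:**
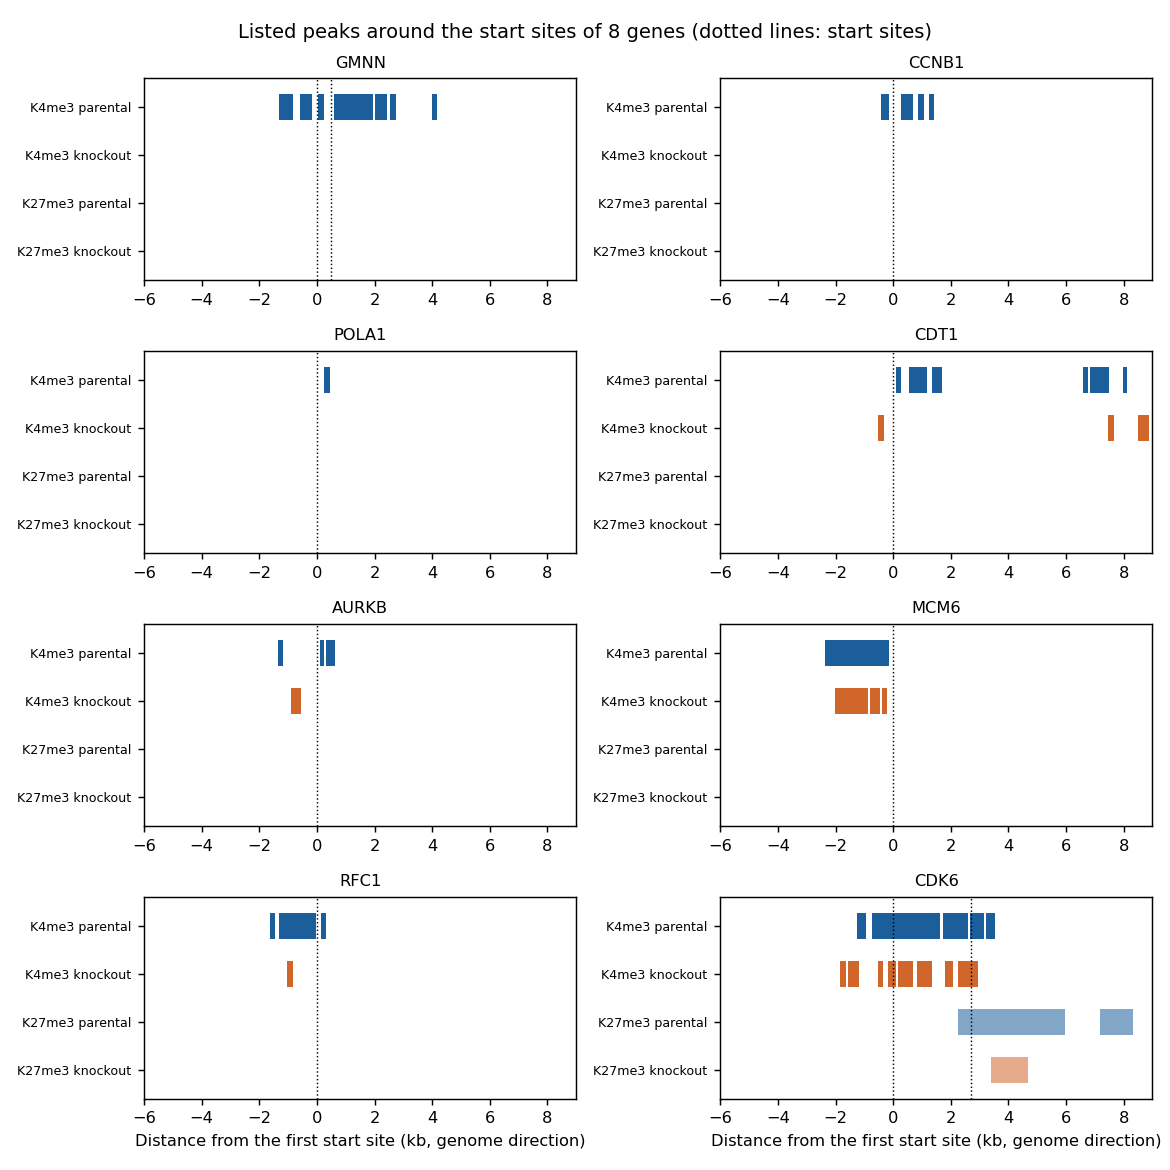
Listed peaks around the start sites of 8 members; the x axis is the distance (kb) from the first start site in the direction of the genome, dotted lines are start sites, and each row is 1 mark in 1 genotype. GMNN, CCNB1 and POLA1 show parental H3K4me3 peaks only, the knockout peaks of CDT1 and AURKB near the start sites lie beside the parental ones, the single MCM6 peak is matched by 3, and CDK6 alone carries H3K27me3.

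Knockout regions of the set lay mostly inside parental ones. The members' promoters held 177 distinct parental and 144 knockout H3K4me3 peaks, with median widths of 435 and 279 bp. Of the knockout peaks 95.8% overlapped a parental peak by at least 1 bp, and of the parental peaks 56.5% overlapped a knockout peak. Over the promoter peaks of all genes these shares were 91.2% and 55.8%. The median width of a parental member peak was 719.5 bp where a knockout peak overlapped it and 275 bp where none did. In base pairs the median member had 92.3% of its knockout region inside the parental one and kept 40.6% of the parental region, where all genes had 89.5% and 41.8%. The whole knockout region lay inside the parental one in 11 of the 45, against 26.1% of all genes marked in both lists. CDT1, AURKB and MCM10 had no shared base pair, a state found in 2.56% of those genes; AURKB and MCM10 were singled out after their values were seen.

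Narrower did not always mean fewer peaks. In 14 of the 45 members the knockout list held more peaks than the parental list, in 8 as many and in 23 fewer; over all genes marked in both, 24.6% had more. The widest parental peak of BUB1B, of 2112 bp, overlapped 4 knockout peaks, as did that of CDK6, of 2340 bp, and that of MCM4, of 1685 bp. Listed regions also stood further from the TSS in the knockout list. The median distance from the TSS to the nearest peak edge was 79 bp in the parental and 182 bp in the knockout list for the 45 members, and 70 and 221 bp for all genes. A peak spanned a TSS in 8 members in parental cells (24% of genes marked there) and in 5 in knockout cells (9.86%). CDK6, CCNE2 and RFC4 were in both groups.

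CDK6 was the single member with H3K27me3 in the lists, and it had it in both genotypes. Over all symbols 5.11% had promoter H3K27me3 in parental and 4.97% in knockout cells, with 2.37% in both. The knockout list alone held 2.6%, and the parental list alone 2.74%, which is 53.6% of its marked genes. Of the genes with promoter H3K4me3, 1.61% carried both marks in parental and 1.34% in knockout cells. In parental cells 3 H3K27me3 peaks of 5683 bp lay within 20 kb of its start sites on chromosome 7. The promoter peak among them ran from 92465465 to 92469203 (hg19, 3739 bp) and spanned the TSS of NM_001145306. The knockout list held 1 peak of 1272 bp, from 92466628 to 92467899, wholly inside the parental one.

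The marks at CDK6 overlapped in the parental list and not in the knockout list. H3K4me3 reached from 92461980 to 92466777 in parental cells, and 1194 bp of the parental H3K4me3 peaks were also under the H3K27me3 peak. In knockout cells H3K4me3 ended at 92466178, the H3K27me3 peak began 449 bp further on, upstream of both start sites of this minus-strand gene, and the overlap was 0 bp. Overlap in a population of cells does not show that both marks sit on 1 nucleosome or in 1 cell. None of the other 47 members had an H3K27me3 peak within 20 kb in either genotype, including GMNN, CCNB1 and POLA1, whose H3K4me3 peaks were missing from the knockout list. Of all 18086 symbols, 2337 had an H3K27me3 peak within 20 kb in the parental and 2352 in the knockout list.

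Members that share promoter peaks with a neighbouring gene had a higher median ratio than the others, without a test of that difference. A shared peak was found for 15 of the 48, against 43.2% of all genes marked in parental cells, among them MCM4 with PRKDC, CDC45 with UFD1L, POLE with PXMP2, ORC6 with VPS35 and AURKA with CSTF1. Their median log2 ratio was -0.75, and that of the 30 unshared members marked in both lists was -1.25. Over all genes the medians were -1.02 for 5034 genes that share a peak and -0.997 for 6156 that do not. The ranges of the members overlapped widely, from -1.76 to -0.16 and from -3.06 to -0.20.

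The surroundings of each member were described by the other genes with a TSS within 5 Mb. Genes that share promoter peaks with the member were kept, so both values can rest in part on the same peaks. The median log2 width ratio there ranged from -2.01 at AURKB to -0.80 at RFC3. Of the 45 members 21 lay above and 23 below the value of their surroundings. ORC1, which shares promoter peaks with PRPF38A, had the same value as its surroundings (-0.85). Across these 45 genes, which share both libraries, the member's own ratio and that of its surroundings had a Pearson correlation of 0.16 and a Spearman correlation of 0.06. AURKB lies in surroundings with a median of -2.01 and CDT1 in surroundings with -1.76, where 41 of 60 parental-marked genes were also marked in the knockout list. RFC1, with 27 of 29 genes also marked and a median of -1.11, and RRM2, with 25 of 26 and -0.82, lay well below their surroundings. MCM6 lay above them, at -0.40 against -1.47.

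**Figure D4:**
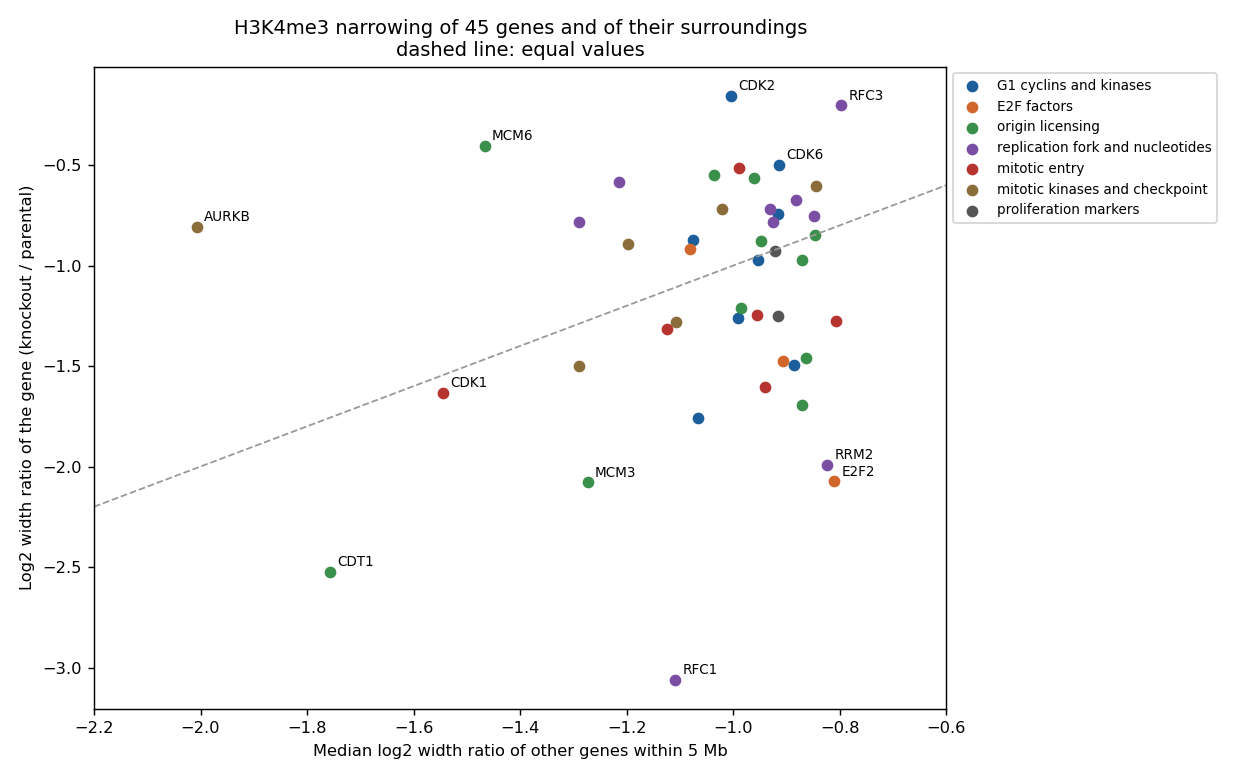
Log2 width ratio (knockout over parental) of each of the 45 members marked in both lists against the median ratio of other genes within 5 Mb, coloured by role; on the dashed line both are equal. RFC1, RRM2 and E2F2 lie far below the line, and AURKB and MCM6 far above it.

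The distance from GMNN, CCNB1 and POLA1 to the nearest knockout peaks was described by the stretch between them, which holds no knockout peak by definition. Around GMNN 558.5 kb held no listed knockout H3K4me3 peak but 11 parental ones. Around CCNB1 the stretch was 1115 kb with 12 parental peaks, and around POLA1 6096 kb with 4. Of the 24920 stretches between neighbouring knockout peaks, 859 held at least the 4 parental peaks of the POLA1 stretch, 25 at least 11 and 17 at least 12, and the most was 18. Within 5 Mb, 77 of 94 parental-marked genes around GMNN were also marked in the knockout list, 18 of 30 around CCNB1 and 10 of 18 around POLA1. The ratio of knockout to parental peak number was 0.595 on chromosome 5, 0.370 on the X chromosome and 0.778 on chromosome 6, against 0.745 over all chromosomes. What part these surroundings have in the state of the 3 genes was not tested, and with 1 library per genotype a difference in the library cannot be told apart from one in the genotype. The lists name only peaks within 20 kb of a TSS, so peaks further away are not seen here.

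**Figure D5:**
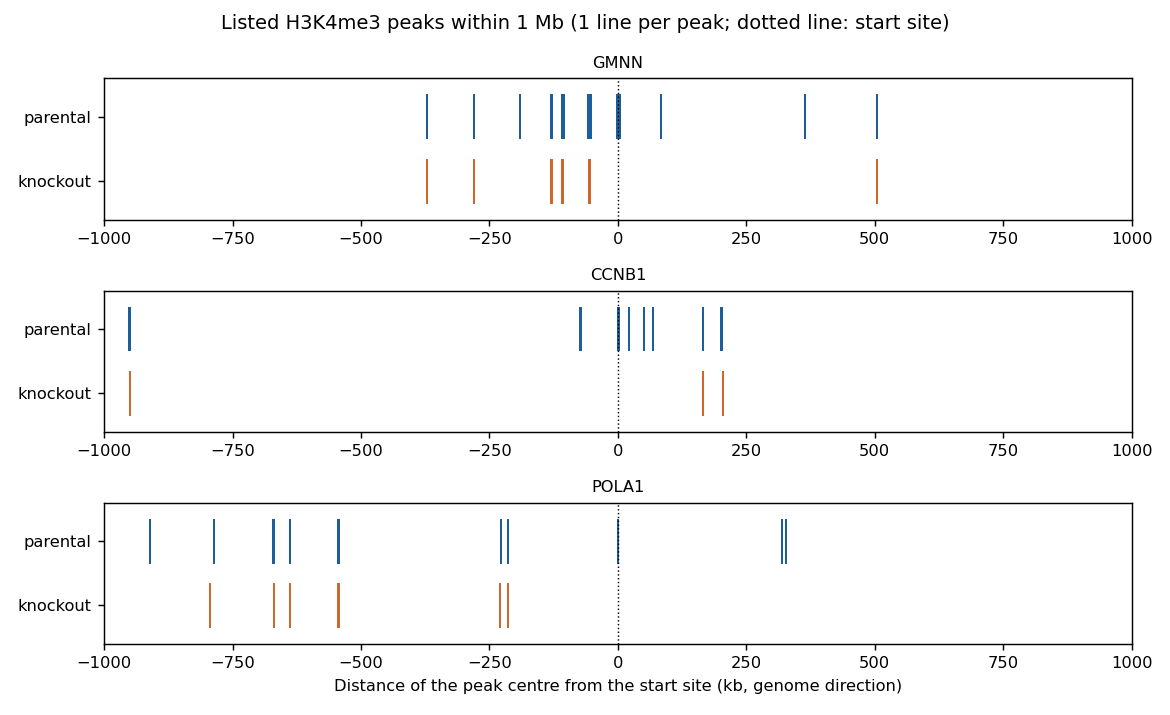
Listed H3K4me3 peaks within 1 Mb of GMNN, CCNB1 and POLA1, 1 line per peak at the distance (kb) of its centre from the start site, in the parental and the knockout list. The parental peaks at and next to the start site of each gene have no knockout line below them. Within 1 Mb the parental and knockout lists held 32 and 19 peaks around GMNN, 23 and 3 around CCNB1, and 17 and 7 around POLA1.

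Other genes of division and replication, a list of 68 symbols that are not members, were set beside the members without a test. In parental cells 67 were marked and in knockout cells 66, while RPA3, a subunit of the single-strand binding protein RPA, had no line in the H3K4me3 lists. SMC2, a condensin subunit, was the single gene marked in parental cells only, with 367 bp. Of the 66 marked in both lists 5 were wider in the knockout list, against 0 of the 45 members, and the median log2 ratio was -0.87. Of the 53 with a promoter window 14 held an E2F site (26.4%), 22 a CHR element (41.5%) and 25 an NF-Y box (47.2%). The shares of all table genes were 3.99%, 19.5% and 39.7%. Those of the genes with promoter H3K4me3 were 6.89%, 15.3% and 43.0%. The lowest ratios were those of the repressor E2F6, with 2607 and 184 bp (-3.82), and of KIF23, a kinesin of cytokinesis, with 1470 and 172 bp (-3.10). The highest were those of GINS4, a subunit of the active helicase, with 433 and 588 bp (0.44), and of CENPA, the centromeric histone, with 849 and 1025 bp (0.27). None of the 68 had promoter H3K27me3 in either genotype.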

How the data were processed

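H3K4me3 and H3K27me3 ChIP-seq peaks of parental and JMJD3 knockout HL-60 cells were analysed, 1 library each; the 2 input libraries were not analysed here. Alignment and peak calling tools, per the submitters' processing notes, were BWA 0.7.10 with SAMtools, and MACS2 2.1.1; the build is hg19 and settings are not given. Each list deposited by the authors pairs a peak with a RefSeq TSS closer than 20 kb and gives, per the file headers, start, end, distance and score. The score deposited by the authors is fixed by the distance (largest error 5e-13) and was not used. Subtracting the distance from the peak centre gave 1 start site within 1 bp for 99.9% of 32444 transcripts. Starts are printed counted from 1, on the unstated reading that the files count from 0.

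Distinct peaks were summed per gene symbol (Python 3.11.15, pandas 2.3.3). The lists hold no read counts or heights, so depth is unknown and no p-value was computed. A 95% interval of the median over genes served only to compare the median between settings. The calculation was tested on simulated lists of 2000 genes and recovered the state of 2000. Members and lists were chosen with earlier results of these data known. Values are given for members whose state differs, those with H3K27me3, the extremes of ratio and width, and 13 fixed genes; the others were added to complete each role. Promoter windows came from RefSeq (GRCh38.p14) and were matched by symbol, and 6 alternative settings were tried. Lists of equal length kept the widest peaks of each list, 24943 for H3K4me3. That setting thus selects by the width that is compared and does not match depth.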

Additional observations from a re-analysis of the deposited data

How the results depend on the processing

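The number of members marked in the parental list was 48 and in the knockout list 45 with a promoter window of 10 kb, with peaks counted for the nearest gene only and with lists of equal length, and GMNN, CCNB1 and POLA1 were marked in parental cells only under these 3 settings. With a window of 1 kb the same 3 genes were, and 4 members (MCM2, MCM6, MCM10 and BUB1B) became marked in the knockout list only, because a parental peak had its centre more than 1 kb from the TSS; the CDK6 H3K27me3 mark was then found in 0 members of the knockout list. When only peaks that span a TSS counted, the parental list marked 8 members and the knockout list 5 (5 and 2 of them in that list alone), the median log2 ratio over the 3 left was -1.59, and H3K27me3 was left in 0 members in knockout cells. With peaks of at least 300 bp 9 members were marked in parental cells only, among them CCNB1, GMNN, CDK1, RRM2 and RFC1, and POLA1 and MCM10 were unmarked in both lists. The shares of all symbols in these states are given for the main setting only. Whether the counts under other settings differ from those of all genes is therefore not known here. The median log2 ratio lay between -1.28 and -0.92 under the settings other than spanning peaks. It lay above that of all genes in the main setting, within 10 kb (-0.93 against -1.01) and for the nearest gene (-0.93 against -0.97), and below it within 1 kb (-0.987 against -0.984), with peaks of at least 300 bp (-1.28 against -1.14), with lists of equal length (-0.916 against -0.908) and with spanning peaks (-1.59 against -1.01). Of the 20 ratios of the 23 genes described by the rule for named genes, CCND3 changed sign within 1 kb (0.0376), and CDK2 within 1 kb (0.0318), for the nearest gene (0.15) and with lists of equal length (0.0318). Among the other members ORC1, CCNA2 and CDC25B were wider in the knockout list within 1 kb, and AURKB with peaks of at least 300 bp and with lists of equal length (307 and 356 bp). Also outside the named genes, AURKA had 2562 and 149 bp within 1 kb, MCM4 829 and 230 bp and MCM5 743 and 585 bp. Other named ratios shifted without a change of sign. Within 1 kb E2F1 went from -0.92 to -2.05, RRM2 from -1.99 to -2.67 and CCNB2 from -0.52 to -1.19. CDK1 went the other way there, from -1.63 to -0.96. With peaks of at least 300 bp CCND1 went from -1.26 to -2.77, MCM3 from -2.08 to -2.79 and CCNB2 to -1.49. Within 10 kb CDT1 went from -2.52 to -1.54. The widths are limited by unknown depth. No paired analysis was possible because there is 1 library per genotype and mark.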

Other observations

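The stretches without a knockout H3K4me3 peak around GMNN, CCNB1 and POLA1 held 9 genes with a parental promoter peak, these 3 included, all of which are unmarked in the knockout list by the definition of a stretch. Beside CCNB1 lay CDK7, the kinase that activates other cyclin-dependent kinases, with 1005 bp in parental cells, and CENPH, a kinetochore gene, with 573 bp. The mitochondrial ribosome gene MRPS36 had 674 bp there and the zinc transporter gene SLC30A5 483 bp. Beside GMNN lay CMAHP with 756 bp. These genes were chosen after their values were seen, and no cause was tested.

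Members with a CHR element had a median log2 width ratio of -1.25 (13 genes, from -1.63 to -0.40), and the 25 members marked in both lists whose windows held none had -0.92 (from -3.06 to -0.20). With an E2F site the median was -1.06 (14 genes) and without one -0.95 (24 genes). With an NF-Y box it was -0.93 (29 genes) and without one -1.21 (9 genes). The ranges overlap widely, and these comparisons are descriptions without a test.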
